A study of Mus musculus with 2 samples.

Results

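Conventional type 1 dendritic cells (cDC1) were examined in single-cell RNA-seq of CD45+ cells from mouse liver metastases. C57BL/6 mice aged 6 to 8 weeks received 1000000 MC38-LM3b cells in the spleen, a liver-metastatic derivative of the MC38 colon carcinoma line, and the liver metastases were taken after 2 weeks. The Ctrl library came from tumors of cells with the shScramble hairpin and the KD library from tumors of cells with the shSLAMF3 hairpin, which targets Ly9, the gene of the receptor SLAMF3. Each library pooled 3 mice, and each group was 1 library, so that no difference between Ctrl and KD had a replicate check. All intervals are 95% intervals that cover counting error only. The hairpin was in the injected tumor cells and not in the host leukocytes described here.

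cDC1 are the dendritic cells specialised in taking up dead cells and in cross-presentation, the display of outside antigens on MHC class I to CD8+ T cells. Their development depends on the transcription factors Irf8 and Batf3 and on signals through Flt3. In tumors they are known for attracting and restimulating CD8+ T cells, among others through Cxcl9, Cxcl10 and Il12b.

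The members were chosen by measured UMIs (unique molecular identifiers, counted as transcripts). A member had at least 1 UMI of Xcr1, the receptor for the chemokine Xcl1, or of Clec9a, a receptor for dead cells. It also had at least 1 UMI of Flt3 or of Wdfy4, a gene needed for cross-presentation. Cells with 3 or more of the maturation genes Ccr7, Fscn1, Ccl22 and Cacnb3, or with any UMI of Cd3e, Cd79a, Siglech or Cd209a, were left out. The rule found 706 of 19999 filtered cells, 421 of 9814 in Ctrl and 285 of 10185 in KD. The libraries held 67207234 UMIs in 10416 barcodes in Ctrl and 64444715 in 10943 in KD, with medians of 5411.5 and 4989 UMIs per filtered cell. They shared 24 barcodes among filtered cells and 0 among members.

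The label held for only some of the members. C1qa, C1qb and C1qc, the chains of the complement protein C1q that macrophages make, together had a median of 56 UMIs per member in Ctrl and of 1 in KD. In Ctrl 72 members (17.1%) had 0 C1q UMIs, 61 had 1 to 5, 28 had 6 to 20 and 260 had more. In KD the numbers were 108 (37.9%), 56, 10 and 111. The C1q UMIs thus fell into a low and a high range with few cells between. Members with at most 5 C1q UMIs are called C1q-low (133 in Ctrl, 164 in KD), and the others C1q-high (288 in Ctrl, 121 in KD, or 68.4% and 42.5% of members). The stricter C1q-low members had at least 2 UMIs in both pairs of rule genes as well (62 in Ctrl, 113 in KD). These divisions were made after the C1q counts had been seen, and values are given in each set.

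**Figure D1:**
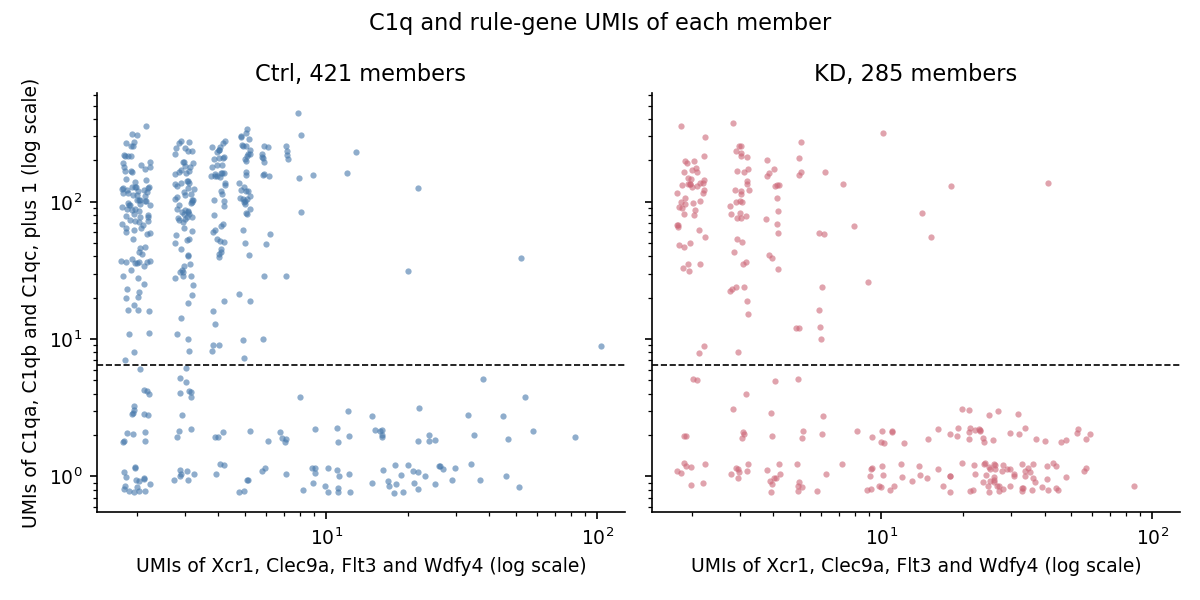
Each point is 1 member, placed by its UMIs of Xcr1, Clec9a, Flt3 and Wdfy4 together (horizontal axis, log scale) and by its UMIs of C1qa, C1qb and C1qc together, plus 1 (vertical axis, log scale), with a little random shift so that points do not hide each other. The dashed line marks the division at 5 C1q UMIs, above which 68.4% of the 421 Ctrl members and 42.5% of the 285 KD members lie, most of them with few UMIs of the rule genes.

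The C1q-low members carried the genes of the label. Levels are given as CPM, the UMIs of a gene per 1000000 UMIs of the set, and the share of cells is the percent with at least 1 UMI. Xcr1 stood at 260 CPM in Ctrl and 291 in KD in C1q-low members, with a UMI in 49.6% and 66.5% of the cells, against 58.4 and 10.2 CPM and 30.2% and 9.09% of C1q-high members. Clec9a stood at 294 and 432 CPM in C1q-low members and at 130 and 140 CPM in C1q-high members. Clec9a, which most members of either kind had through the rule, was found in 89.5% and 92.7% of C1q-low and in 87.2% and 95.9% of C1q-high members. Flt3 separated the sets more, with 139 and 200 CPM in C1q-low against 4.2 and 13.2 CPM in C1q-high members, and a UMI in 47.4% and 73.2% of the cells against 2.8% and 6.6%. These 4 genes chose the members, so their levels are a description.

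Genes that the rule did not use differed between the sets in the same libraries. Cst3, the protease inhibitor cystatin C that dendritic cells hold in large amounts, stood at 14058 CPM in Ctrl and 13253 in KD in C1q-low members and at 1587 and 1479 in C1q-high members. Zbtb46, a transcription factor of conventional dendritic cells, stood at 81.3 and 117 CPM against 4.2 and 17.6. Itgae, the integrin CD103, stood at 168 and 269 CPM against 13.6 and 5.9. Btla, an inhibitory receptor of cDC1 and lymphocytes, had 158 and 227 CPM against 8.2 and 11, and Cd24a had 278 and 260 CPM against 17.9 and 27.1. All these genes were higher in C1q-low members in both libraries. Batf3 (149 and 134 CPM against 71.7 and 96.6), Irf8 (1354 and 1146 against 536 and 409) and Naaa, a lysosomal lipid hydrolase (949 and 1060 against 459 and 435), were also higher there, by less. Cadm1, an adhesion molecule often used to mark cDC1, had 434 and 572 CPM in C1q-low and 646 and 337 CPM in C1q-high members, and thus did not separate them.

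The C1q-high members carried macrophage genes. Csf1r, the receptor that macrophages need to survive, had a UMI in 79.2% of C1q-high members in Ctrl and 89.3% in KD, against 22.6% and 14.0% of C1q-low members. Apoe, a lipid carrier that macrophages secrete, stood at 1415 and 4371 CPM against 225 and 132. The 10 macrophage markers together came to 13114 CPM in Ctrl and 15582 in KD in C1q-high, 606 and 307 in C1q-low and 238 and 194 in stricter C1q-low members, and none of the 10 was at 0 in any of the first 2 sets. The sets were divided by C1q, itself a macrophage product, so these sums are a description and no separate check. Csf1r and Apoe were not used for the division. The rule was met by 288 of 2673 filtered cells with more than 5 C1q UMIs in Ctrl (10.8%) and by 121 of 2240 in KD (5.40%). For C1q-high members the name cDC1 therefore rests on few UMIs of the rule genes, and below they are called by their C1q level alone.

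**Figure D2:**
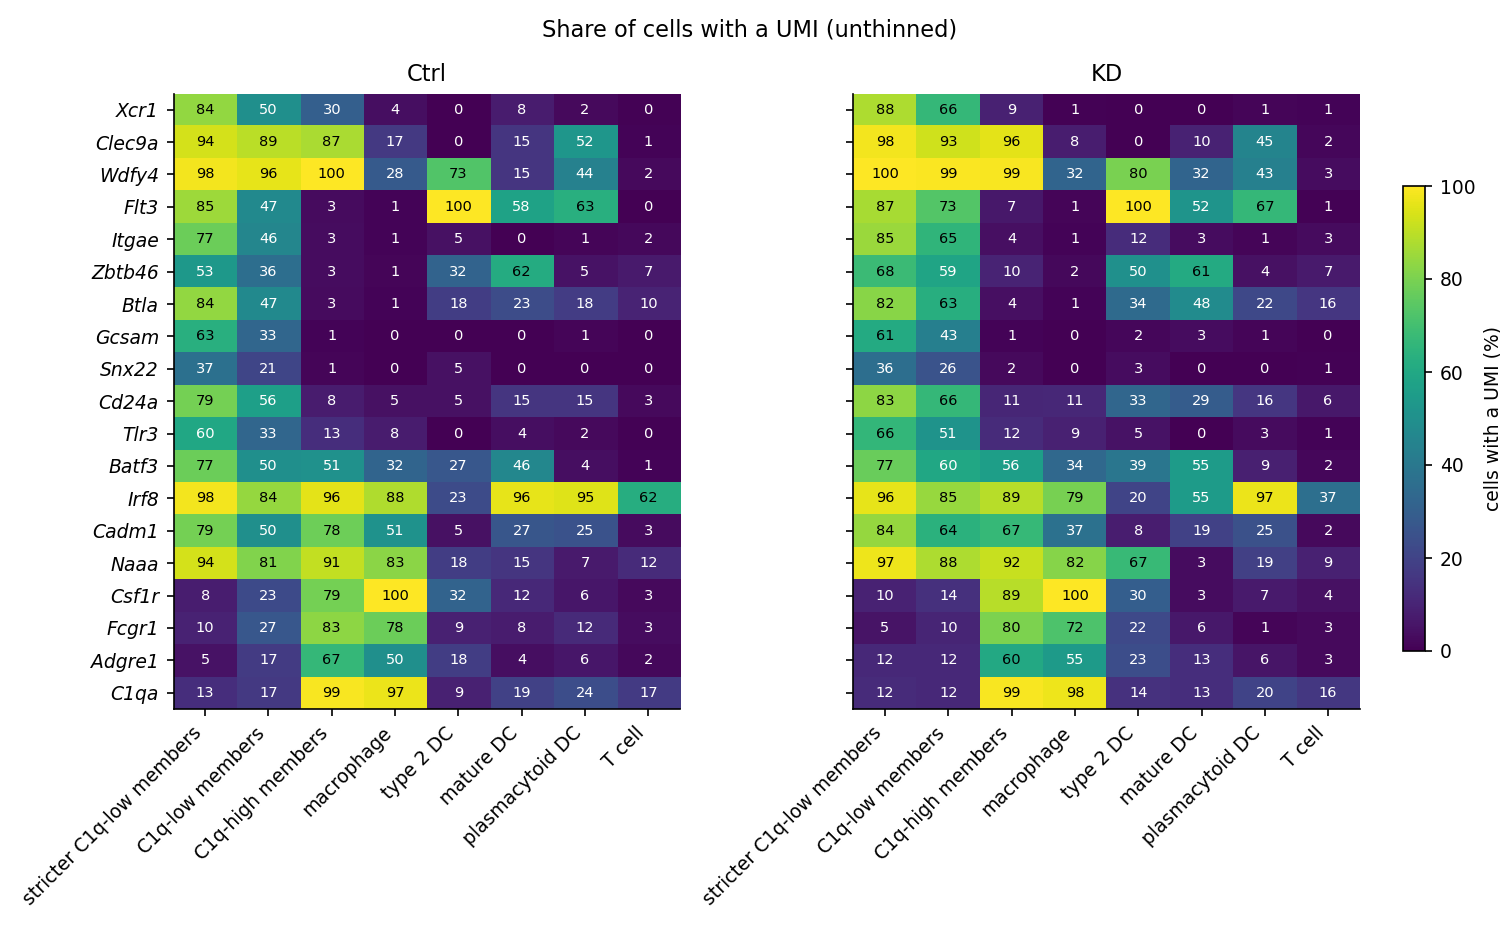
Heat map of the percent of cells with a UMI (colour and number, unthinned) for 19 genes (rows) in the member sets and in other gated cells (columns), with a panel each for Ctrl and KD. Flt3 is found in 47.4% and 73.2% of C1q-low against 2.8% and 6.6% of C1q-high members, and Csf1r in 22.6% and 14.0% against 79.2% and 89.3%.

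How far the counts could tell the cells apart depended on few molecules. The median of Xcr1 and Clec9a together was 2 UMIs per member in both libraries, and 202 Ctrl and 121 KD members had exactly 1. The median of Flt3 and Wdfy4 together was 1 UMI in Ctrl and 3 in KD, and 231 and 95 members had exactly 1. Just inside the rule, with 1 UMI of either pair, lay 133 Ctrl and 60 KD members, of which 101 and 48 had more than 5 C1q UMIs. Just outside it, 545 Ctrl and 393 KD cells had an Xcr1 or Clec9a UMI and none of Flt3 or Wdfy4, and 1107 and 1620 had the reverse. A UMI of Cd3e, Cd79a, Siglech or Cd209a left out 69 Ctrl and 70 KD cells that met the rest of the rule, and 3 or more maturation genes left out 3 and 2. In T cells, which should lack both genes, a UMI of Clec9a was found in 1.16% in Ctrl and 1.82% in KD and one of Xcr1 in 0.456% and 0.912%, at medians of 7337.5 and 5834 UMIs per cell. In gated macrophages, at medians of 7548 and 8770.5 UMIs, Clec9a was found in 16.6% and 8.08%, well above the T cell level. Members had been taken out before this gate, so these shares leave out C1q-high cells that met the rule.

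The C1q-low members differed between the libraries in depth and in their UMIs of the rule genes. The median of Xcr1 and Clec9a together was 2 UMIs in Ctrl and 5 in KD, and that of Flt3 and Wdfy4 together 5 and 11. Whether other cells made up more of the C1q-low members in Ctrl than in KD was not tested. The median depth of C1q-low members was 7954 UMIs in Ctrl and 10157 in KD. Of them, 58 of 133 in Ctrl against 44 of 164 in KD had exactly 1 Xcr1 or Clec9a UMI. In the stricter C1q-low members the medians were 10233.5 and 10912 UMIs. There Xcr1 had 412 CPM in Ctrl and 380 in KD, with a UMI in 83.9% and 87.6% of cells. With every cell thinned to 1500 UMIs, whereby 745 filtered cells of Ctrl and 593 of KD were too shallow, Flt3 was found in 18.2% of C1q-low members in Ctrl and 25.6% in KD, against 0.347% and 1.65% of C1q-high members.

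Markers of other cells were measured in the C1q-low members, whose mixture by free RNA or by a second cell in a droplet was not tested. The 6 neutrophil markers came to 161 CPM in Ctrl, with Mmp8 at 0, and to 4682 CPM in KD. Of their 7973 UMIs in KD, 2467 lay in 1 cell. In stricter C1q-low members the markers came to 32.7 CPM in Ctrl and 890 in KD. S100a8, a granule protein gene of neutrophils, had a UMI in 9.77% of C1q-low members in Ctrl and 42.1% in KD, and in 7.95% and 34.2% of T cells. The neutrophil gate held 400 cells in Ctrl and 1822 in KD. More than 5 neutrophil UMIs were found in 3 Ctrl and 17 KD C1q-low members, and more than 5 macrophage UMIs in 30 (22.6%) and 18 (11%). Markers of T cells summed to 36.3 and 59.9 CPM, of NK cells to 11.5 and 5.87 CPM and of B cells to 89.3 and 107 CPM. Higher sums were those of plasmacytoid dendritic cells (679 and 405 CPM), endothelium (479 and 329), monocytes (452 and 557) and type 2 dendritic cells (448 and 514). More than 5 endothelial UMIs were found in 13 Ctrl and 18 KD C1q-low members, with up to 189 in 1 Ctrl cell. Hepatocyte and tumor or fibroblast markers stayed below 100 UMIs in every member set, with 0 to 29 and 6 to 91 UMIs. Xist was found in both libraries (714 and 756 CPM in C1q-low members) and the 4 Y-linked genes listed had 0 UMIs there, so the pools did not differ by sex.

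Then the abundance of the members was compared. Among filtered cells, the share of all members was 4.29% (3.897% to 4.71%) for Ctrl and 2.80% (2.49% to 3.14%) for KD. KD thus lay at -1.49 percentage points relative to Ctrl (-2.01 to -0.973). The difference lay in the C1q-high members, which made up 2.93% in Ctrl and 1.19% in KD, or -1.75 points (-2.15 to -1.35). C1q-low members made up 1.36% (1.14% to 1.60%) and 1.61% (1.38% to 1.87%), and the difference of 0.255 points (-0.0876 to 0.598) was within counting error. Because neutrophils took a larger share of KD, the shares were also taken over cells outside the neutrophil gate, where the C1q-low difference was 0.548 points (0.162 to 0.942). The stricter C1q-low members made up 0.632% in Ctrl and 1.11% in KD, or 0.478 points (0.215 to 0.745). For stricter members with no regard to C1q, the difference was 0.0336 points (-0.283 to 0.349), and with the rule applied to thinned cells it was 0.179 points (-0.0877 to 0.446). The sign of the difference in cDC1 was thus not fixed by these data, as it moved with the C1q level, the number of rule UMIs and the depth.

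The members were also counted among dendritic cells. Beside the members, 22 Ctrl and 64 KD cells met a gate for type 2 dendritic cells, 26 and 31 one for mature dendritic cells and 84 and 69 one for plasmacytoid dendritic cells. Members were 76.1% of these dendritic gates in Ctrl and 63.5% in KD. C1q-low members were 133 of 265 cells (50.2%) and 164 of 328 cells when only they were counted as cDC1, a difference of -0.189 points (-8.49 to 8.11). For stricter C1q-low members it was 8.84 points (-0.327 to 17.7). Neither difference was distinct from 0 by its counting interval.

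**Figure D3:**
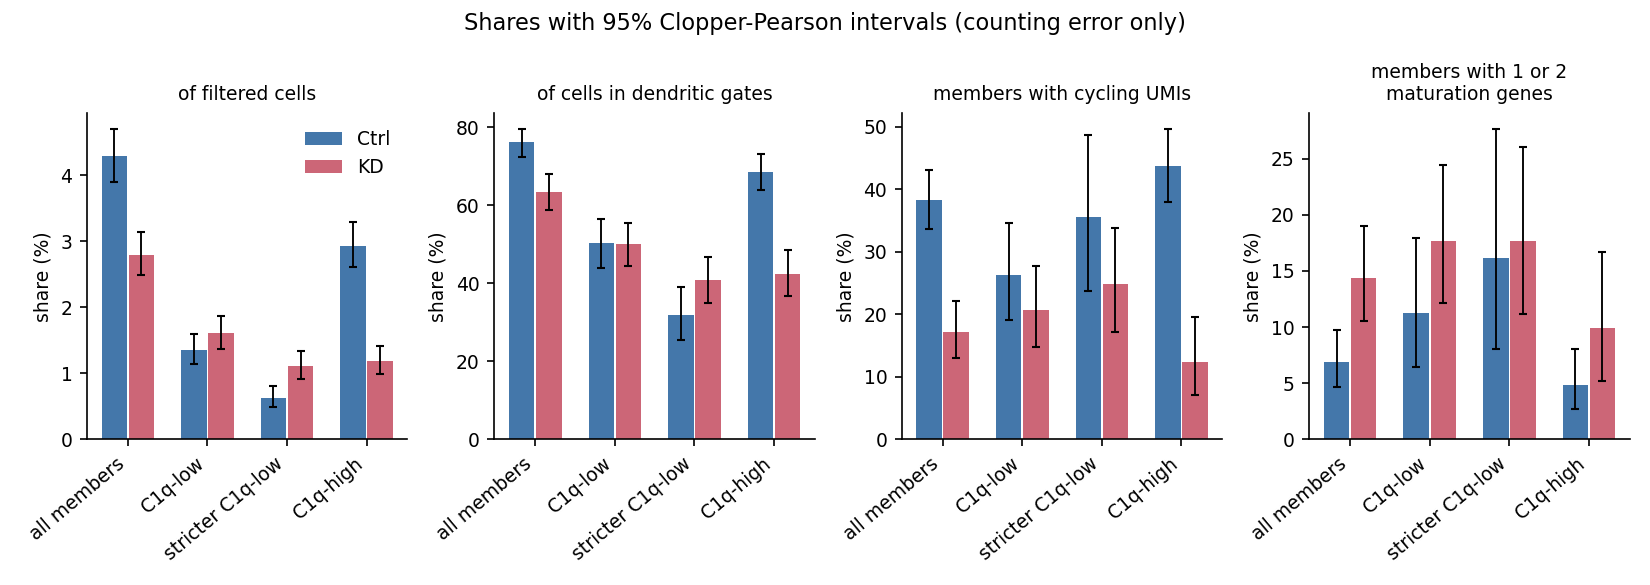
Bars give percentages (vertical axes) in Ctrl (blue) and KD (red) for all members and the 3 C1q sets, with exact Clopper-Pearson 95% intervals for counting error as error bars. The panels show, from the left, shares of filtered cells, shares of the cells in dendritic gates, members with cycling UMIs (at least 2) and members with 1 or 2 of the rule's maturation genes. Of filtered cells, all members are lower in KD (4.29% against 2.80%), whereas C1q-low members are at 1.36% and 1.61%.

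Next, gene levels in KD were set against Ctrl. A gene is called higher or lower here when its CPM differed at least 2-fold and the interval of the log2 ratio (KD over Ctrl) lay on one side of 0. Among genes with at least 50 UMIs, 343 of 9245 (3.71%) were higher and 277 (3.0%) lower in KD over all members. In C1q-low members 117 of 6282 (1.86%) were higher and 125 (1.99%) lower. Gene lists used genes with at least 20 UMIs, for which the background in C1q-low members was 3.0% higher and 2.90% lower, with a median log2 ratio of -0.02 over all genes. In all members it was 4.95% higher and 3.64% lower with a median of -0.06, in C1q-high members 3.72% and 4.67% with -0.08, and in stricter C1q-low members 3.61% and 2.45% with 0.00. Unless another set is named, the values below are from the C1q-low members, whose make-up may differ between Ctrl and KD.

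The genes that give cDC1 their identity were mostly within 2-fold between KD and Ctrl in C1q-low members. Of 23 such genes outside the rule, 0 were called higher and 1 lower, with a median log2 ratio of 0.16, and the interval lay above 0 for 12 and below it for 3. It was 0.04 in stricter C1q-low members, where 0 were higher and 1 lower and the interval lay above 0 for 7 and below it for 4, against 0.66 over all members, where 7 were higher and 0 lower. Summed, the list stood at 3882 CPM in Ctrl and 5076 in KD over all members, at 6373 and 7012 in C1q-low members, and at 8523 and 8533 in stricter C1q-low members. The transcription factors Batf3 (-0.14, -0.44 to 0.15) and Irf8 (-0.24, -0.34 to -0.14) were within 2-fold, as were Id2, which restrains other lymphoid and plasmacytoid fates (0.38, 0.27 to 0.49), and Zbtb46 (0.53, 0.17 to 0.90). Itgae had 190 UMIs in Ctrl and 458 in KD, a log2 ratio of 0.68 (0.43 to 0.93), and Clnk, a signalling adaptor, had 65 and 163 UMIs (0.74, 0.31 to 1.17). The gene called lower was Gpr33, a chemoattractant receptor, with 44 UMIs in Ctrl and 31 in KD (-1.10, -1.81 to -0.40).

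Genes induced by interferon gamma, the cytokine of activated T and NK cells, were lower in KD. Of 21 listed genes with enough UMIs, 15 were called lower and 0 higher in C1q-low members (background 2.90% lower), with a median log2 ratio of -1.29. In stricter C1q-low members 6 of 19 were lower (background 2.45%) with a median of -0.66, and in C1q-high members 2 of 22 (background 4.67%) with a median of -0.45. The interval of a gene lay below 0 for 20 of 21, 9 of 19 and 16 of 22 genes in these sets, and above it for 0 in each. Differences in size between the sets were not tested.

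Interferon regulators work through 2 short elements, the interferon-stimulated response element (ISRE, searched by its core GAAANNGAA) and the gamma-activated site (GAS, searched as TTCNNNGAA). In RefSeq promoters (GRCm38.p6, 250 bases before the start, both strands), 17 of the 22 genes were matched, with 19 promoters. An ISRE core was in 12 of them (63.2%) and a GAS in 10 (52.6%), against 7.13% and 7.02% of all 32851 promoters. The list was chosen as interferon gamma-induced genes, and the ISRE core was shortened after matches of a longer form had been seen. These shares therefore describe the list and say nothing about the difference between KD and Ctrl. Those of 4 genes are shown as examples of the kinds of match, each ending 1 base before the start site, with matched bases in capitals. Cxcl10 (chr5:92348890-92349139, minus strand) held 1 ISRE core, 213 to 205 bases before the start, and Irf1 (chr11:53769764-53770013, plus strand, the first of 2 promoters in the table) held 1 GAS. Socs1 (chr16:10785537-10785786, minus strand) held 2 overlapping ISRE matches. Gbp5 (chr3:142496684-142496933, plus strand) held 1 ISRE on the opposite strand, seen here as its reverse complement, and 2 GAS. A match is a description of the letters and not a bound site, and the 2 patterns share no overlapping bases in these 4 promoters. The promoter of Cxcl9 held 1 ISRE core and that of Ifi47 neither motif.
Cxcl10: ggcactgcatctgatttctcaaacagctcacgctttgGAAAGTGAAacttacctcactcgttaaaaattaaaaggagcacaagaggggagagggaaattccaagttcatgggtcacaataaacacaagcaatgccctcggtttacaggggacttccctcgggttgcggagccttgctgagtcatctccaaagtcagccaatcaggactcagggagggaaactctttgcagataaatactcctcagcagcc
Irf1: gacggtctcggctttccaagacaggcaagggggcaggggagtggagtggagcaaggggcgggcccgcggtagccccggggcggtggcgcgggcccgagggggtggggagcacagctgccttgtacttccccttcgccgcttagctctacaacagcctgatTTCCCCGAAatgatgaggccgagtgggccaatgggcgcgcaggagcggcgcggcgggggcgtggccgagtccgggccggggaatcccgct
Socs1: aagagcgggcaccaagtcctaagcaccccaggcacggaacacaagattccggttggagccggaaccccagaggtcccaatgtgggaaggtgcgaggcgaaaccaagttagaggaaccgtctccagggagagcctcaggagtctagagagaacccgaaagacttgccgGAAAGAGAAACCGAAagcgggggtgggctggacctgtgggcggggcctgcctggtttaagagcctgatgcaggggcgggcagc
Gbp5: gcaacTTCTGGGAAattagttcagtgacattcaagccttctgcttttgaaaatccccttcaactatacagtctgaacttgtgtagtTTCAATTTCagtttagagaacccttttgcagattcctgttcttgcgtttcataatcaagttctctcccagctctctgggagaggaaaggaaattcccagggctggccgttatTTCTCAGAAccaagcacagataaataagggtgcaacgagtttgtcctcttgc

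Of the regulators themselves, Irf1, a transcription factor that binds the ISRE, had 290 UMIs (256 CPM) in Ctrl and 162 (95.1 CPM) in KD, a log2 ratio of -1.43 (-1.72 to -1.15). It was found in 68.4% and 43.9% of the C1q-low cells, and in 33.3% and 12.8% after thinning to 1500 UMIs. Socs1, the feedback inhibitor of the pathway, had 173 and 64 UMIs (153 and 37.6 CPM) and a ratio of -2.02 (-2.46 to -1.60), and it was found in 39.8% and 19.5% of cells. In T cells Socs1 was found in 20.1% and 20.9%. The ratio of Socs1 was as large in stricter C1q-low members (-2.24), and that of Irf1 was -1.04. Socs3, an inhibitor that several cytokines induce, had 126 and 139 UMIs and a ratio of -0.45.

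The list holds guanylate-binding proteins and immunity-related GTPases, which attack vacuoles of pathogens. In C1q-low members Gbp4 had 79 UMIs in Ctrl against 27 in KD (log2 ratio -2.14, -2.83 to -1.49), Gbp5 had 142 and 66 (-1.70, -2.14 to -1.26), and Gbp2 had 297 and 197 (-1.18). Ifi47 had 149 and 78 UMIs (-1.52) and Igtp 84 and 47 (-1.43). Gbp3 (-0.97), Gbp9 (-0.59) and Irgm2 (-0.99) were short of 2-fold, and Gbp6 had too few UMIs to be counted. The ratios were smaller in stricter C1q-low members for some of the genes, with -0.67 for both Gbp2 and Gbp5 and 0.01 for Gbp7, against -1.56 for Gbp4 and -1.34 for Ifi47. Members of the Gbp family and the pair Tgtp1 and Tgtp2 are near-identical in parts of their sequence, so the split of reads between them is uncertain. Fgl2, a secreted protein of the same list, had 513 and 610 UMIs and a ratio of -0.34.

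The chemokines that draw CXCR3+ T cells were among the genes with the lowest ratios. Cxcl9 had 821 UMIs (726 CPM) in Ctrl and 303 (178 CPM) in KD, a log2 ratio of -2.03 (-2.22 to -1.84), with a UMI in 58.6% and 31.7% of C1q-low members. After thinning the shares were 35.6% and 12.2%. In T cells, which make little of it, Cxcl9 was found in 12.6% and 5.23%, so the shares in C1q-low members lay above this background. In stricter C1q-low members the CPM were 647 and 169, in 69.4% and 24.8% of cells (-1.93). In C1q-high members 96.2% and 77.7% of cells had Cxcl9 (-0.46).

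Cxcl10, in contrast, depended on the set. It had 632 UMIs (559 CPM) in Ctrl and 238 (140 CPM) in KD in C1q-low members, a log2 ratio of -2.00 (-2.22 to -1.78), and 109 of the UMIs lay in 1 cell. In stricter C1q-low members it stood at 110 and 95.6 CPM, a ratio of -0.20. The share of cells with Cxcl10 was 40.6% and 23.2% in C1q-low members and 19.3% and 11.2% in T cells. Cxcl11 had 61 and 17 UMIs (-2.43, -3.30 to -1.64), and its ratio was -3.01 in the stricter set.

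Cell by cell, the 22 interferon gamma-induced genes together took a median of 26.5 per 10000 UMIs of a C1q-low member in Ctrl (quartiles 14.3 and 46.0) and of 8.93 in KD (4.21 and 17.6). In the stricter C1q-low members the medians were 19.1 (10.1 and 29.0) and 7.14 (3.85 and 11.4), so that the upper quartile of KD lay close to the lower quartile of Ctrl. In C1q-high members the medians were 52.3 and 32.8. Summed over the cells, the list stood at 3599 CPM in Ctrl and 1451 in KD in C1q-low members, 2323 and 1214 in the stricter set and 5677 and 4250 in C1q-high members. The macrophage markers, which moved with the list in C1q-low members (606 and 307 CPM), differed less in the stricter set (238 and 194 CPM), and their part in the difference of the list was not tested.

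**Figure D4:**
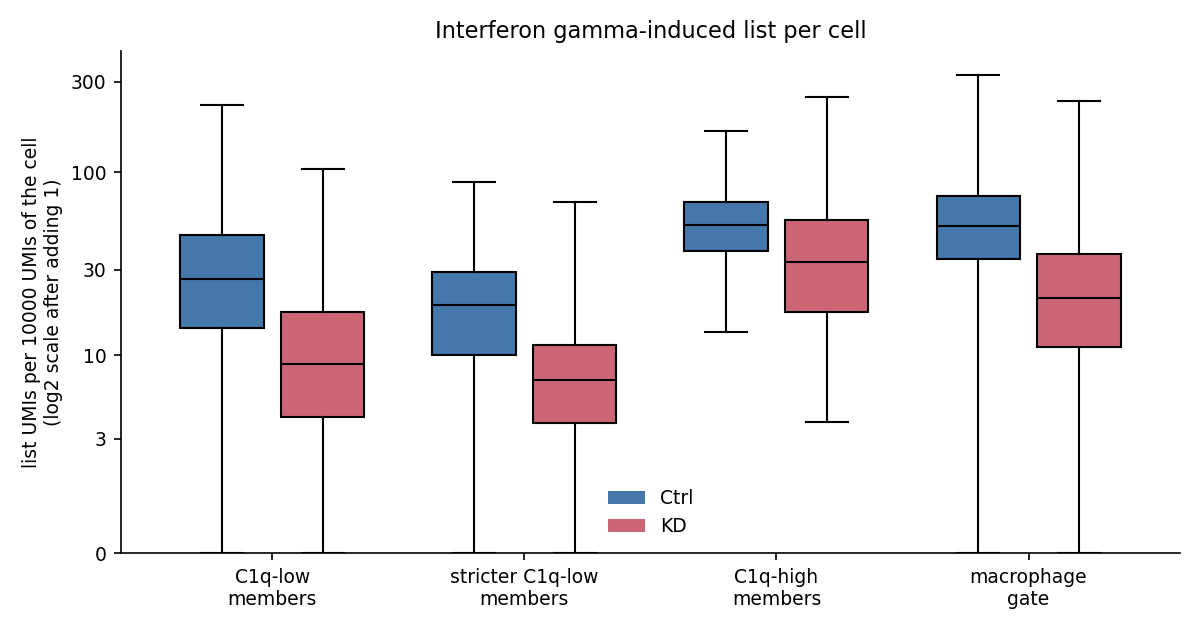
UMIs of the 22 interferon gamma-induced genes per 10000 UMIs of a cell (vertical axis, log2 scale after adding 1) in the member sets and the macrophage gate, for Ctrl (blue) and KD (red). Boxes span the quartiles with the median as a line, and whiskers reach the lowest and highest cell. The median of C1q-low members is 26.5 in Ctrl and 8.93 in KD, and that of stricter C1q-low members 19.1 and 7.14.

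Other cells of the same libraries are given for comparison. The interferon gamma list had a median log2 ratio of -0.89 in type 2 dendritic cells, with 5 of 13 genes lower (background 3.14%), of -0.53 in mature dendritic cells (6 of 14, background 6.77%) and of -0.42 in plasmacytoid dendritic cells (2 of 16, background 3.10%). In gated macrophages it was -0.97, with 11 of 22 genes lower (background 3.15%), and in neutrophils -2.06 (20 of 22, background 4.61%). In T cells it was -0.11, with 0 of 22 lower (background 1.96%). A lower list was thus not measured in cDC1 alone. Differences between the gates in the size of the ratio were not tested. Between the gates the levels differed, with per-cell medians per 10000 UMIs of 51.6 in Ctrl and 20.9 in KD macrophages, 14.2 and 8.18 in type 2, 19.1 and 10.9 in mature and 8.94 and 7.35 in plasmacytoid dendritic cells.

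Genes stimulated by type I interferon showed a smaller difference. Of 27 in C1q-low members, 8 were lower and 0 higher (background 2.90% and 3.0%), with a median log2 ratio of -0.70. In stricter C1q-low members 4 of 19 were lower and 1 higher (background 2.45% and 3.61%), with a median of -0.44. Isg15, a ubiquitin-like protein, had 220 UMIs in Ctrl and 124 in KD (-1.42, -1.75 to -1.09), and Rsad2, the antiviral enzyme viperin, had 67 and 26 (-1.96). Ifit3 had 35 and 10 UMIs (-2.40). Not all genes of the list were lower, since Mx1, an antiviral GTPase, had 47 and 123 UMIs (0.80, 0.30 to 1.31) and Ifih1, a sensor of double-stranded RNA, had 40 and 95 (0.66, 0.11 to 1.23). The per-cell medians of the list were 12.7 and 9.91 per 10000 UMIs in C1q-low and 7.70 and 8.44 in stricter C1q-low members.

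Antigen presentation on MHC class I, which interferon gamma is known to raise, was measured over 19 genes. None was called in C1q-low members, but the interval lay below 0 for 16 of 19 and above it for 0, with a median log2 ratio of -0.51. The median was -0.53 in stricter C1q-low and -0.34 in C1q-high members. H2-K1, a class I heavy chain, stood at 1670 CPM in Ctrl and 1160 in KD (-0.52, -0.61 to -0.43), and B2m, the light chain, at 2160 and 1580 CPM (-0.45, -0.53 to -0.37). Tap1, the peptide transporter, stood at 296 and 208 CPM (-0.51), and Psmb9, a subunit of the immunoproteasome, at 1050 and 707 CPM (-0.57, -0.69 to -0.45). Per cell, the list took a median of 104.7 per 10000 UMIs in Ctrl and 76.9 in KD in stricter C1q-low members. Nlrc5, the transactivator of class I genes, had 82 and 128 UMIs and a ratio of 0.05. In other gates the list median was -0.42 in macrophages, -0.15 in T cells, -0.12 in type 2, and -0.11 in both mature and plasmacytoid dendritic cells. In the neutrophil gate the list took a per-cell median of 91.4 per 10000 UMIs in Ctrl and 51.0 in KD. A lower list was thus not measured in cDC1 alone, and differences in size between the gates were not tested.

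Genes tied to cross-presentation itself did not share this pattern. Of 17 genes in C1q-low members 1 was higher and 0 lower, with a median log2 ratio of -0.09. Sec22b, a fusion protein of phagosomes, had a ratio of -0.21, and Rab43, a small GTPase used by cDC1, had 27 UMIs in Ctrl and 60 in KD (0.56, -0.12 to 1.27). Cybb, the catalytic subunit of the phagosome oxidase, had a ratio of -0.62, or 0.19 in the stricter set. The higher gene was Cd207, the lectin langerin that some tissue cDC1 carry, with 1 UMI in Ctrl and 51 in KD (5.08, 2.54 to 10.41). These UMIs lay in 1 of 133 Ctrl cells (0.752%) and 16 of 164 KD cells (9.76%), and all 16 KD cells were stricter C1q-low members, of which they made up 14.2%. In gated macrophages Cd207 had 5 and 143 UMIs, in 2 and 14 cells.

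MHC class II genes were nearly level. Cd74, the invariant chain and the most abundant of the 13, stood at 8433 CPM in Ctrl and 8238 in KD (log2 ratio -0.03), H2-Aa had a ratio of 0.05 and Ciita, the class II transactivator, of -0.02. The list median was -0.03 in C1q-low and -0.06 in stricter C1q-low members, with 0 genes called in either direction in C1q-low members. The lowest ratios were those of the proteases Lgmn (238 and 185 UMIs, -0.95) and Ctss (1130 and 953 UMIs, -0.84), which were -0.32 and -0.29 in the stricter set.

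Ligands and receptors that steer T cells were mostly within 2-fold. Of 14 costimulation and checkpoint genes in C1q-low members 3 were lower and 0 higher (background 2.90% and 3.0%), with a median log2 ratio of -0.02. The lower genes were Cd274, Pdcd1lg2 and Cd200r1. Cd274, the ligand PD-L1, had 625 UMIs (553 CPM) in Ctrl and 339 (199 CPM) in KD (-1.47, -1.67 to -1.28), and was found in 69.2% and 41.5% of cells, or 43.9% and 17.7% after thinning, against 38.7% and 36.4% of T cells without thinning. Its ratio in the stricter set was -0.80, with 64.5% and 36.3% of cells. Pdcd1lg2, the ligand PD-L2, had 93 and 48 UMIs (-1.54, -2.08 to -1.03). Cd86, which costimulates through CD28, had 529 and 762 UMIs (-0.06). Cd80, its partner, stood at 53.9 and 93.4 CPM (0.79, 0.36 to 1.24), and Havcr2, the receptor TIM-3, at 147 and 243 CPM (0.72, 0.46 to 0.99), with intervals above 0 and sizes under 2-fold. Cd40, which receives help from CD4+ T cells, had 43 and 48 UMIs (-0.43).

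Maturation was assessed outside the 4 rule genes. Of 20 such genes 5 were lower and 0 higher (background 2.90% and 3.0%), with a median log2 ratio of -0.09. In stricter C1q-low members the median was 0.20, and 3 were lower and 1 higher (background 2.45% and 3.61%). The lower genes were Cd274 and Pdcd1lg2 again, Marcksl1 (-1.31), Cd200 (-1.18) and Aldh1a2, the enzyme that makes retinoic acid (25 and 12 UMIs, -1.65). Cd83 had 365 and 681 UMIs (0.31). Of the rule's maturation genes, 1 or 2 were found in 15 Ctrl (11.3%) and 29 KD (17.7%) C1q-low members and in 29 (6.89%) and 41 (14.4%) of all members. In stricter C1q-low members the shares were 16.1% and 17.7%.

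Cytokine genes were sparse. Il12b, the subunit shared by interleukins 12 and 23, had 46 UMIs (40.7 CPM) in 9 Ctrl cells and 86 (50.5 CPM) in 11 KD cells, a log2 ratio of 0.31 (-0.22 to 0.86) that was not distinct from 0 at this depth. Il12a, its partner in interleukin 12, had 2 and 4 UMIs, and Il15 had 39 and 54 (-0.12). Il18, a cytokine that acts on T and NK cells, was higher, with 20 UMIs in 15 Ctrl cells (11.3%) and 104 in 61 KD cells (37.2%), a ratio of 1.79 (1.09 to 2.56). It was found in 2.0% and 2.25% of T cells, and its ratio was 2.48 in stricter C1q-low members. Il10 had 24 and 10 UMIs (-1.85), 15 of the 24 in 1 cell. Il1b, an inflammatory cytokine abundant in neutrophils and monocytes, stood at 1178 and 751 CPM (-0.65), and at a ratio of -0.02 in the stricter set. In all, 1 of 8 cytokine genes was higher and 1 lower, with a median of -0.19.

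Over 13 chemokine genes, the CXCR3 ligands included, 1 was higher and 5 were lower in KD (background 3.0% and 2.90%). The median log2 ratio of the list was -0.53. In stricter C1q-low members it was 0.15, with 2 lower and 3 higher of 12 (background 2.45% and 3.61%). Ccl17, which attracts CCR4+ cells, had 20 UMIs in 5 Ctrl cells and 166 in 18 KD cells (2.46, 1.79 to 3.21), with 98 of the KD UMIs in 1 cell. In mature dendritic cells Ccl17 stood at 39.7 CPM in Ctrl and 856 in KD. Ccl2 had 98 and 58 UMIs (-1.35) and Ccl12 30 and 6 (-2.91), both attractants of monocytes. Cxcl2, an attractant of neutrophils, had 583 and 913 UMIs and a ratio of 0.06 in C1q-low but of 2.08 in stricter C1q-low members. Cxcl16, the ligand of CXCR6 on T cells, had 148 and 180 UMIs (-0.31).

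Sensing and uptake genes were mostly within 2-fold. Of 15 sensing genes in C1q-low members 0 were called, with a median log2 ratio of 0.13. Tlr3, the endosomal receptor for double-stranded RNA that marks cDC1, had 108 UMIs in Ctrl and 214 in KD (0.40, 0.06 to 0.74), and Tlr11, a receptor for profilin, had 32 and 75 (0.64, 0.02 to 1.28). Tlr9 had 5 and 4 UMIs. Of 11 genes of dead cell uptake 0 were higher and 1 lower, with a median of -0.09. The lower gene was Mertk, a receptor for dying cells that macrophages also carry, with 31 and 23 UMIs (-1.02), and Axl of the same family had 32 and 25 (-0.95). Cd36, a scavenger receptor, had 129 and 247 UMIs (0.35).

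Receptors for growth factors and cytokines gave a median log2 ratio of -0.15, with 0 of 13 higher and 1 lower in C1q-low members. The lower one was Csf1r, with 60 UMIs in Ctrl and 32 in KD (-1.50), a gene of the macrophage list as well. Ifngr1, the binding chain of the interferon gamma receptor, had 245 UMIs (217 CPM) in Ctrl and 625 (367 CPM) in KD, a ratio of 0.76 (0.55 to 0.98), and 1.03 in stricter C1q-low members. Ifngr2, the other chain, had a ratio of -0.17 and Ifnar1, of the type I receptor, of 0.04.

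Trafficking receptors had a median of 0.21, with 2 of 12 higher and 1 lower in C1q-low members (background 3.0% and 2.90%). In the stricter set 4 of 11 were higher and 0 lower (background 3.61% and 2.45%). Ccr9, the receptor for the gut chemokine Ccl25, had 12 UMIs in 9 Ctrl cells and 55 in 29 KD cells (log2 ratio 1.61, 0.69 to 2.64). Ccr9 is a gene of the plasmacytoid dendritic cell list as well. Cxcr3, the receptor for Cxcl9 and Cxcl10, had 21 UMIs in 17 Ctrl cells and 75 in 44 KD cells (1.25, 0.53 to 2.02). The ratios were 1.83 and 1.04 in the stricter set, so that both genes passed 2-fold there too. Ccr2, which brings precursors from blood, had 145 and 353 UMIs (0.69). Cxcr4, a receptor for Cxcl12, had 95 and 226 UMIs (0.66), and a ratio of 2.19 in the stricter set. Cx3cr1 was the lower one, with 25 and 18 UMIs (-1.06).

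Proliferation was measured in each set. Cells with at least 2 UMIs of Mki67, Top2a, Cdk1, Ccnb1, Ccnb2, Birc5 and Ube2c together, genes of the late cell cycle, made up 35 of 133 C1q-low members in Ctrl (26.3%) and 34 of 164 in KD (20.7%), a difference of -5.58 points (-15.8 to 4.51) within counting error. In stricter C1q-low members they made up 22 of 62 (35.5%) and 28 of 113 (24.8%), or -10.7 points (-25.9 to 4.09). In C1q-high members they made up 126 of 288 (43.8%) and 15 of 121 (12.4%). C1q-high members thus lay above C1q-low members in Ctrl and below them in KD. The cell cycle list had a median log2 ratio of -0.16 in C1q-low members, with 1 of 21 genes lower (background 2.90%). In stricter C1q-low members it was -0.35, with 3 of 21 lower (background 2.45%) and the interval below 0 for 10 and above it for 0. In C1q-high members it was -1.50, with 15 of 21 lower (background 4.67%). Top2a, which untangles replicated DNA, had ratios of -0.41 in C1q-low and -1.80 in C1q-high members.

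Ly9, the gene that the hairpin targeted in the tumor cells, had 16 UMIs in C1q-low members of both libraries, in 12 Ctrl and 15 KD cells (log2 ratio -0.59, -1.69 to 0.50). Over all members it had 107 and 67 UMIs (-0.14). These counts do not check the knockdown, since the hairpin was in the tumor cells, and whether all these UMIs came from the members was not tested. Of 10 genes of the SLAM receptors and their adaptors 0 were called in C1q-low members, with a median of -0.18. Slamf7 was the receptor with the second most UMIs (233 and 377, ratio 0.10) after Cd48 (249 and 385, ratio 0.04), and Slamf8, a myeloid member, had 150 and 145 (-0.64).

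Of the remaining lists, the 15 genes of glycolysis had a median of -0.46 on the log2 scale in C1q-low members, with 0 called and the interval below 0 for 11. Among them, Tpi1 had a ratio of -0.75, Pgk1 of -0.64 and Gapdh of -0.36. Immediate early and heat shock genes, which cell isolation can raise, had a median of -0.11. The markers of monocytes had a median of 0.84, of neutrophils of 5.09, of macrophages of -1.07, of type 2 dendritic cells of 0.02 and of plasmacytoid dendritic cells of -0.79. T cell markers had a median of 0.68, NK cell markers of -0.85, B cell markers of 0.13 and endothelial markers of -0.56, and a single Kupffer cell gene was counted, at -0.04. In C1q-high members the Kupffer cell markers came to 93.2 CPM in Ctrl and 507 in KD, a median ratio of 2.42. Over all members, the tumor or fibroblast markers had a median of 3.26 from 2 genes, and 1 hepatocyte gene had a ratio of -2.72.

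**Figure D5:**
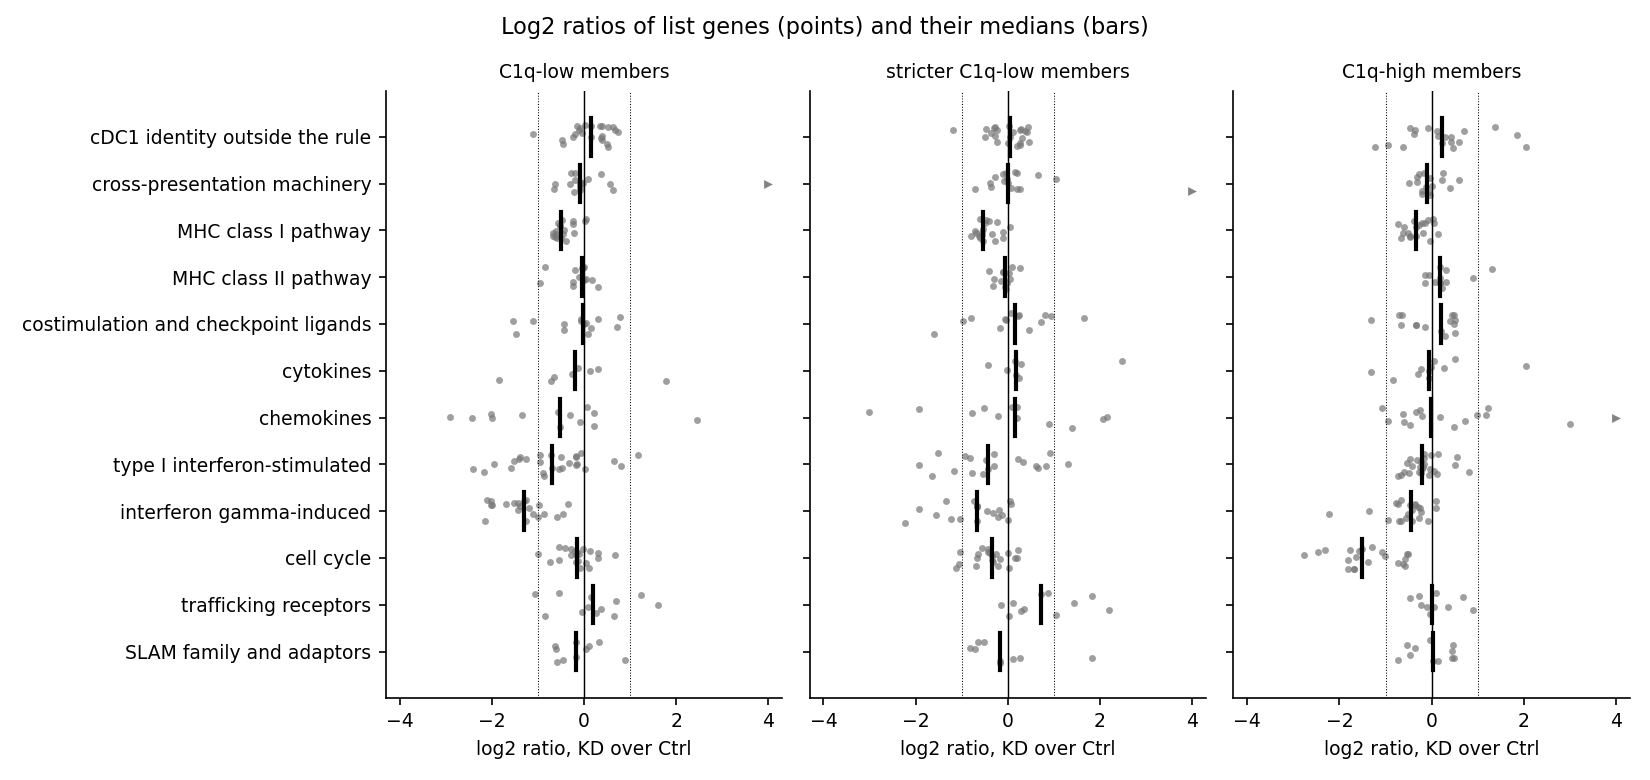
Log2 ratios of KD over Ctrl (horizontal axis) of single genes (points) and their median (bar) for 12 of the gene lists (rows), in C1q-low, stricter C1q-low and C1q-high members, with dotted lines at 2-fold. The interferon gamma medians lie left of 0 in each panel, at -1.29, -0.66 and -0.45, and triangles at the right edge mark Cd207 (C1q-low and stricter C1q-low members) and Ccl17 (C1q-high members), which lie beyond the axis.

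The genes with the largest ratios were then named, from the 12 at either end. In C1q-low members the highest were Cd207, Chil3 (18 UMIs in Ctrl against 240 in KD, log2 ratio 3.15), Fzd1 (5 and 45, 2.58), Sult1a1 (10 and 73, 2.28), Acss1 (7 and 51, 2.27), Fabp4 (21 and 143, 2.18), Fgfr1 (14 and 82, 1.96), Map2k6 (14 and 77, 1.87), Il18, Fkbp5 (39 and 199, 1.76) and Chsy3 (16 and 82, 1.77). Chil3, a chitinase-like protein of monocytes and neutrophils, lay in 5 Ctrl and 14 KD cells. Most of the others were spread over more cells, such as Sult1a1, a sulfotransferase, in 6 Ctrl and 46 KD cells. Fgfr1, a fibroblast growth factor receptor, lay in 9 and 50 cells, and Fkbp5, a co-chaperone that glucocorticoids induce, in 24 and 78. Of the 143 Fabp4 UMIs in KD, 58 lay in 1 cell. Some of these genes had large ratios in gated macrophages and T cells as well. These were 3.24 and 3.49 for Sult1a1, 2.34 and 4.28 for Fabp4 and 3.35 and 2.77 for Chil3. Others had small ratios there, with 0.44 and 0.14 for Acss1, 0.20 and 0.62 for Map2k6 and 0.16 and 0.55 for Il18.

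At the low end in C1q-low members stood Calhm6 (79 UMIs in Ctrl against 21 in KD, log2 ratio -2.50), Cxcl11, Spon1 (72 and 23, -2.24), Gbp4, Cxcl9, Socs1, Cxcl10, Klra2 (120 and 49, -1.88), Bmp2 (36 and 15, -1.85), Batf2 (38 and 16, -1.84), Ly6i (56 and 25, -1.75) and Rgcc (79 and 36, -1.72). Of these 12, 4 were in the interferon gamma list and Cxcl11 is known to be induced by the same cytokine, as is Batf2, a transcription factor of activated myeloid cells. Single Ctrl cells held 22 of the 36 Bmp2 UMIs and 47 of the 79 Rgcc UMIs. Not all of these genes stayed low in stricter C1q-low members. There Spon1 and Klra2 had small positive ratios and Cxcl10 was within 2-fold, whereas Cxcl9, Cxcl11, Gbp4 and Socs1 kept negative ratios past 2-fold.

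Over all members, the 12 highest were Cd207 (4 and 51 UMIs, log2 ratio 4.2), Krt18 (4 and 46, 4.05), Magi1 (8 and 79, 3.83), Lyve1 (7 and 48, 3.31), Sult1a1 (13 and 82, 3.19), Fabp4 (34 and 214, 3.18), Fgfr1 (15 and 94, 3.18), Lyz1 (19 and 102, 2.96), Clec14a (8 and 43, 2.96), Acer2 (9 and 48, 2.95), Chsy3 (20 and 99, 2.84) and Cyyr1 (19 and 90, 2.77). Of the Krt18 UMIs in KD, 44 lay in 1 cell, and Lyve1 and Clec14a are known from endothelium. The 12 lowest were Tnfsf15 (54 and 2, -4.22), Tnp2 (53 and 3, -3.61), Ch25h (95 and 7, -3.23), Clic5 (52 and 4, -3.17), Negr1 (64 and 7, -2.66), Fignl1 (62 and 7, -2.62), Mcm8 (51 and 6, -2.56), Nos2 (410 and 49, -2.53), H2ac24 (760 and 93, -2.50), H2ac8 (462 and 59, -2.44), Chrm3 (246 and 32, -2.41) and Selenom (621 and 83, -2.37). Nos2, the inducible nitric oxide synthase, had a ratio of -2.53 (-2.99 to -2.10) over all members, in 95 Ctrl and 15 KD cells, and -2.63 in gated macrophages. H2ac24 and H2ac8 are histone genes of near-identical families, so the split of reads between them is uncertain. C1q-high cells were 68.4% of all members in Ctrl and 42.5% in KD, so ratios over all members mix make-up and level. Within C1q-low and C1q-high members the ratios were -1.04 and -1.80 for Selenom, -0.91 and -3.72 for H2ac24 and 1.51 and 6.89 for Magi1.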

How the data were processed

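Barcoded matrices of UMI counts for 2 libraries (10x Genomics 3' v3.1 chemistry) were used as the authors deposited them, with 56941 features. Per the submitters' processing notes, they came from Cell Ranger 7.1.0 with GRCm39, and Seurat 5.1.0 and R 4.4.1 were also used. The deposited counts were whole and not normalized, and the lowest barcode held 500 UMIs.

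Cells with at least 200 genes, at most 30000 UMIs, at most 6000 genes and at most 10% mitochondrial UMIs were kept. No doublet caller was run, and doublets were limited only by these upper bounds. Other cells were gated by UMIs as well. Mature dendritic cells had 3 or more of the maturation genes, type 2 dendritic cells Cd209a and Flt3, plasmacytoid dendritic cells Siglech, Bst2 and Tcf4, macrophages Csf1r and at least 10 C1q UMIs, neutrophils Csf3r and at least 20 UMIs of S100a8 and S100a9, and T cells Cd3e with Cd3d or Trac and fewer than 10 C1q UMIs, each without UMIs of other gates' lineage genes. UMIs of the members were summed per library. The libraries are single, so no test was made. Ratios have exact conditional binomial intervals and shares exact Clopper-Pearson intervals (95%), for counting error only, since cells are not replicates. In simulated data for all members over 9232 genes, 95.9% of the intervals held the true value, and 100% of true 4-fold and 40.7% of true 2-fold changes passed 2-fold. The simulated counts were drawn gene by gene with counting error alone, which the intervals assume. They left out the clustering of UMIs in single cells, so they check the calculation and not its fit to these data.

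The members, the 31 gene lists and the rule for named genes (list genes of most UMIs or past 2-fold, and the 12 highest and lowest ratios with 0.5 CPM added for ranking, leaving out genes under 0.2 times their highest gate, and mt-, Rpl, Rps, antigen receptor, sex and unnamed genes) were chosen with earlier results of these data known. The C1q divisions were made after seeing the data. Cd207's cells, Il12a, Tlr9, Id2, Clnk, Il12b and other genes given for their role were also chosen after their values were seen. A few genes, 1 of the 12 highest in C1q-low members among them, are not reported here. 1 list gene had a duplicated symbol and was left out. Alternatives were thinning to 1500 UMIs (seeded), TMM scaling in edgeR 4.0.16 (R 4.3.3), equal weights per cell, other cell filters and member rules. Python 3.11.15 with numpy 2.4.6, scipy 1.17.1 and pandas 2.3.3 was used. Promoter sequences came from RefSeq tables of GRCm38.p6, a build other than that of the counts, and were matched by gene symbol. The ISRE letters were shortened to a core after matches of a longer form had been seen.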

Additional observations from a re-analysis of the deposited data

How the results depend on the processing

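No paired analysis was possible because each group was 1 library. Of the values over all members and their alternatives, 501 stayed within counting error or within 1.5 times of the value as reported, 242 moved further and 38 changed sign. The causes of these changes were not tested. TMM scaling moved all log2 ratios by 0.026 over all members and 0.046 in C1q-low members. Below, stricter members have at least 2 UMIs in both pairs of rule genes, and members without other-lineage UMIs have at most 5 C1q UMIs, at most 5 of S100a8 and S100a9, and at most 1 each of the pairs Cd3d and Cd3g, and Cd79b and Ms4a1. Few molecules per cell limit the choice of members, and single libraries limit every comparison.

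The share of filtered cells (-1.49 points) became 0.0336 for stricter members, 0.0896 without other-lineage UMIs, 0.179 with the rule on thinned cells, 0.255 in C1q-low members (0.548 outside the neutrophil gate) and 0.478 in stricter C1q-low members (0.693 outside it). The share of dendritic gates (-12.7 points) became -3.80, -2.85, 8.45, -0.189 and 8.84 in these 5 settings and -26.1 in C1q-high members. The cycling share (-21.0 points) became -6.15 without other-lineage UMIs, -5.58 in C1q-low, -31.4 in C1q-high and -10.7 in stricter C1q-low members. The maturation share (7.50 points) became -0.313 on thinned cells and 1.57 in stricter C1q-low members.

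The 343 genes higher in KD became 195 for stricter members, 94 without other-lineage UMIs, 12 on thinned cells, 117 in C1q-low, 202 in C1q-high and 141 in stricter C1q-low members. With other minimums they were 569 (20 UMIs), 106 (200 UMIs) and 865 (none), and 703 at 1.5-fold. The 277 lower genes became 146 without other-lineage UMIs, 24 on thinned cells, 128 without cycling members, 125 in C1q-low and 74 in stricter C1q-low members, 418 (20 UMIs), 93 (200 UMIs), 495 (no minimum) and 920 (1.5-fold).

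The identity median (0.66) became 0.24 without other-lineage UMIs, 0.30 on thinned cells, 0.16 in C1q-low, 0.22 in C1q-high and 0.038 in stricter C1q-low members. The interferon gamma median (-0.97) became -1.29 without other-lineage UMIs, -1.30 on thinned cells, -1.29, -0.45 and -0.66 in the C1q sets in the same order, and -1.49 for stricter members. The type I interferon median became -0.90 without other-lineage UMIs, and the MHC class I median -0.61 on thinned cells. The MHC class II median (0.11) became 0.024 without other-lineage UMIs, 0.20 on thinned cells, 0.030 without cycling members, and -0.034, 0.18 and -0.059 in the C1q sets. The cell cycle median (-0.85) became -0.23 without other-lineage UMIs, -0.25 without cycling members, and -0.16, -1.50 and -0.35 in the C1q sets. The chemokine median (-0.43) became -1.37 for stricter members, -0.59 without other-lineage UMIs, -0.66 on thinned cells, -0.019 in C1q-high and 0.15 in stricter C1q-low members.

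Sign changes of marker medians were -0.069 and -0.073 for type 2 dendritic cells in stricter members and without other-lineage UMIs (-0.039 in stricter C1q-low members), 0.33 for plasmacytoid dendritic cells in stricter C1q-low members and -0.81 for B cells on thinned cells. They were -0.018 and -0.043 for Kupffer cells without other-lineage UMIs and in C1q-low members, and -0.68, -0.27, -0.56 and -0.73 for endothelium without other-lineage UMIs, on thinned cells, and in C1q-low and stricter C1q-low members. Of named genes, on thinned cells Magi1 had -0.40, Fabp4 -1.98 and Fzd1 -2.40. Krt18 had -0.0096 in stricter members and -0.996 without cycling members. In C1q-high members Fzd1 had -1.81 and Klra2 0.094. In stricter C1q-low members Clec14a had -0.19, Clic5 0.075, Spon1 0.075, Klra2 0.15 and Bmp2 -1.73, and Bmp2 had -2.57 without other-lineage UMIs and -1.85 in C1q-low members.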
